A study of Mus musculus with 8 samples.

Results

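The small leucine-rich proteoglycans are secreted matrix proteins that share a core of leucine-rich repeats, and 10 of them (Dcn, Bgn, Aspn, Lum, Fmod, Prelp, Kera, Omd, Ogn and Epyc) were followed here by gene symbol among the 49315 genes counted. The study sorted mouse bone marrow stroma into 7 populations, clusters 1 to 7, and sequenced RNA of each, together with input bone marrow. There was 1 library per population and 1 of the input, so 8 in all, and no comparison between populations has a replicate behind it. All 8 came from wild type mice labelled as C57BL/6J (C57BL/6JJcl in the study's methods) and 6 weeks old, with no transgene and no treatment. Clusters 1 to 7 were gated as negative for CD31, CD45 and Ter119, the antigens of endothelial, blood and red cells. Cluster 1 was then CD24-, CD39+ and Sca-1+, and cluster 2 was Ly-6C-, CD24- and CD39-. Cluster 3 was Ly-6C+ and CD24+ but negative for CD39 and CD54, and cluster 4 was Ly-6C-, CD24- and CD54+. Cluster 5 was CD54+ and negative for CD24, Ly-6C and CD121b, and cluster 6 was CD24+, CD39- and Sca-1-. Cluster 7 was Sca-1+ and negative for CD54, CD24 and Ly-6C. The labels call all 8 libraries stromal cells and describe RNA taken from crushed marrow for all 8, whereas the study's methods describe small amounts of RNA from sorted cells; how the input RNA was made is not given in the sources used here. The counts on genes came to 24205863, 25349917, 27102715, 32549319, 12833648, 31669132 and 33238133 for clusters 1 to 7 and to 20162876 for the input, so cluster 5 was the shallowest.

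The labels were checked against markers, and RNA of the antigens used for sorting followed the gates only in part. Ly6a, which encodes Sca-1, was at 589.8 and 226 RPKM in clusters 1 and 7, gated as Sca-1+, and at 4.98 in cluster 6, gated as Sca-1-. It was higher than in cluster 7 in clusters 3 and 4, at 931 and 431, whose gates as given above do not name Sca-1. The study's sorting methods also list antibodies to Sca-1 and PDGFR-alpha for enriching the lineage-negative cells. Ly6c1, of Ly-6C, was highest in the Ly-6C+ cluster 3, at 409.9. In the Ly-6C- clusters 2, 4, 5 and 7 it was at 32.9, 122, 27.1 and 53.7. Cd24a was highest in the CD24+ cluster 6, at 137, but was at 49.9, its lowest by total count, in cluster 3, also CD24+. It was at 126 in cluster 2, gated as CD24-. Icam1, which encodes CD54, was at 237 and 44.5 in the CD54+ clusters 4 and 5 and at 11.4 and 149.6 in clusters 3 and 7, gated as CD54-. Entpd1, which encodes CD39, was at 8.55 in the CD39+ cluster 1, above its 3.10, 2.27 and 4.52 in the CD39- clusters 2, 3 and 6. Il1r2, which encodes CD121b, was at 76.7 in cluster 5, gated as CD121b-, and at 21.9 to 177 in the other sorted libraries. RPKM is the read count divided by exon length and by the total count of the library, in the usual scaling to kilobases and megareads. Osteoblast, chondrocyte, tendon and fibroblast markers were read in every library, and endothelial Pecam1 was at 4.08 RPKM or less. RNA of blood cells was abundant as well. S100a9, a neutrophil protein gene, was at 4834 to 11033 RPKM in the sorted libraries and at 14745 in the input, and Hba-a1, an alpha globin gene of red cells, was at 30376 RPKM in cluster 5 and at 267 in the input. Ptprc, which encodes the CD45 used for exclusion, was at 1.69 to 9.26 RPKM in the sorted libraries and at 13.5 in the input. The part of this blood cell RNA in any difference below was not tested. In these bulk libraries, fewer cells of a type and less RNA per cell cannot be told apart.

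Small leucine-rich proteoglycans bind collagen fibrils, set their diameter and spacing, and hold growth factors in the matrix. Class I (Dcn, Bgn, Aspn) and class III (Ogn, Epyc) are linked to chondroitin or dermatan sulfate in several members, and class II (Fmod, Lum, Prelp, Kera, Omd) mostly to keratan sulfate or sulfated tyrosines. In the skeleton they are known from bone, cartilage, tendon and periosteum.

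Most of the family sits in 3 clusters of genes. In GRCm38 coordinates, Dcn (chr10:97479500-97518162), Lum (chr10:97565501-97572703), Kera (chr10:97607205-97613688) and Epyc (chr10:97644068-97682454) follow each other on the forward strand, with gaps of 47.3, 34.5 and 30.4 kb. Aspn (chr13:49544443-49567565), Omd (chr13:49582766-49592609) and Ogn (chr13:49608071-49624500) also share the forward strand, 15.2 and 15.5 kb apart, within the span of Cenpp on the other strand but with no shared exon bases. Prelp (chr1:133910304-133921414, reverse strand) and Fmod (chr1:134037254-134048277, forward strand) lie 116 kb apart, and Bgn (chrX:73483602-73495933, forward strand) stands alone. Epyc and Prelp share 315 and 350 exon bases with Gm10754 and Gm15851 on the opposite strand, and whether the counting used strand is not given in the sources used here.

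RefSeq promoter windows, 250 bases before to 50 after a start site on GRCm38.p6, matched 8 of the 10 genes. Kera and Epyc, and Aspn, Omd and Ogn, are printed because they are next neighbours whose order of levels turned over between populations. Capitals mark matches on either strand to TATAAA (the TATA box), TGTGGT (a core bound by Runx factors) and ACAATG (a core bound by Sox factors), letters that 13.6%, 16.8% and 12.6% of the 32851 windows held. The windows are chr10:97606955-97607254 for Kera, chr10:97643818-97644117 for Epyc, chr13:49544193-49544492 for Aspn, chr13:49582212-49582511 for Omd and chr13:49607765-49608064 for Ogn, all on the forward strand.
Kera: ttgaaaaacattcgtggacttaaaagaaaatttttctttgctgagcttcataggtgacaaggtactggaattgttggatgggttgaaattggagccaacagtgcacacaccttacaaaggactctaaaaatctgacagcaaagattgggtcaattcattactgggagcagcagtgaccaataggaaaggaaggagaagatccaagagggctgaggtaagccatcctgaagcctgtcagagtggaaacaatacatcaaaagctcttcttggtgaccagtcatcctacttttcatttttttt
Epyc: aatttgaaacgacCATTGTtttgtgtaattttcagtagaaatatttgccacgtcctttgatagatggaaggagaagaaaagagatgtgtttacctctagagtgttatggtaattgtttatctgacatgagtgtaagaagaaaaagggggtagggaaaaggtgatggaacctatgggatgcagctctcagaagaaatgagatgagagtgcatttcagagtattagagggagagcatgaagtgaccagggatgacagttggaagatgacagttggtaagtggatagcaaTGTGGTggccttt
Aspn: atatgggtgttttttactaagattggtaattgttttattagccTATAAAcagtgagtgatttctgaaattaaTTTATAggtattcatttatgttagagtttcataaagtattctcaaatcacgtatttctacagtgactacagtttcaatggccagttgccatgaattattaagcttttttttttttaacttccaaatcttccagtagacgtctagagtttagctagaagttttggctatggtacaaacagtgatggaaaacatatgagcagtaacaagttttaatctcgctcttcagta
Omd: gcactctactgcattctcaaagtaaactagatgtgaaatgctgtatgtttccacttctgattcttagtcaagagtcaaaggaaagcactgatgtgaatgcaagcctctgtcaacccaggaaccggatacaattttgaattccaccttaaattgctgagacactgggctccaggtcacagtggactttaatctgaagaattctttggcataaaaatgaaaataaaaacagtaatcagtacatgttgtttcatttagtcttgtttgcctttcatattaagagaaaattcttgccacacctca
Ogn: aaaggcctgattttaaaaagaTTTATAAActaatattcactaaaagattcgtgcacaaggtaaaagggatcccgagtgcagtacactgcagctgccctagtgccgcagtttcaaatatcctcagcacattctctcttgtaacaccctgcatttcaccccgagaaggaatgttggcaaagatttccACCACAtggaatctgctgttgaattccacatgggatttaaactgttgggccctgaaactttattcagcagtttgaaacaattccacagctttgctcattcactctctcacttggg
The Epyc window printed held the Sox core 237 bases before the start site and the Runx core 37 bases after it. RefSeq gives Epyc another window, around a start site at position 97647103, with the Sox core 209 and 202 bases before that site and no Runx core. The Aspn window held TATA matches 207 and 178 bases before the start site, on opposite strands. The Ogn window held overlapping TATA matches on opposite strands, 229 and 227 bases before the start site, and the Runx core 65 bases before it. None of the 3 motifs was found in the Kera or Omd window, which says only that these letters are not there.

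All 10 genes were above 2 RPKM in at least 1 sorted library, and none was at 0 counts in any library. The smallest count was 69, of Epyc in cluster 5, where the exact Poisson 95% interval of its 2.10 RPKM ran from 1.63 to 2.66. Such intervals, and the exact binomial intervals of ratios below, cover counting error only and not the spread between animals or sorts. The family took 1.80, 0.948, 1.99, 2.22, 0.831, 1.44 and 2.71% of all counts in clusters 1 to 7 and 2.69% in the input. Between the highest and the lowest sorted library, all 10 differed by more than 2-fold, as did 70.6% of the 12360 genes tested, on the RPKM + 1 scale. More than 4-fold was reached by 9 of the 10, all but Bgn, against 15.7% of all genes; the 4-fold limit was chosen after the values were seen. Both counts moved with the setting. With TMM factors, DESeq2 size factors or the total count less 3 loci, Dcn and Fmod also stayed under 4-fold, leaving 7 genes, against 14.7, 14.8 and 15.9% of all genes. With TPM all 10 passed 4-fold, as did 75.5% of all genes, and 99.7% of all genes passed 2-fold. With a pseudocount of 0.1, all but Bgn passed 4-fold (30.6% of all genes) and all 10 passed 2-fold (84.6%). With no RPKM limit the members were the same, against 5.32 and 28.2% of all genes. Without the cluster 5 library, Bgn fell below 2-fold (a log2 ratio of 0.81), leaving 9 (52.1% of all genes), and Fmod and Prelp below 4-fold, leaving 7 (13% of all genes). The median log2 range was 2.77 over the 10 genes and 1.26 over all genes tested.

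**Figure D1:**
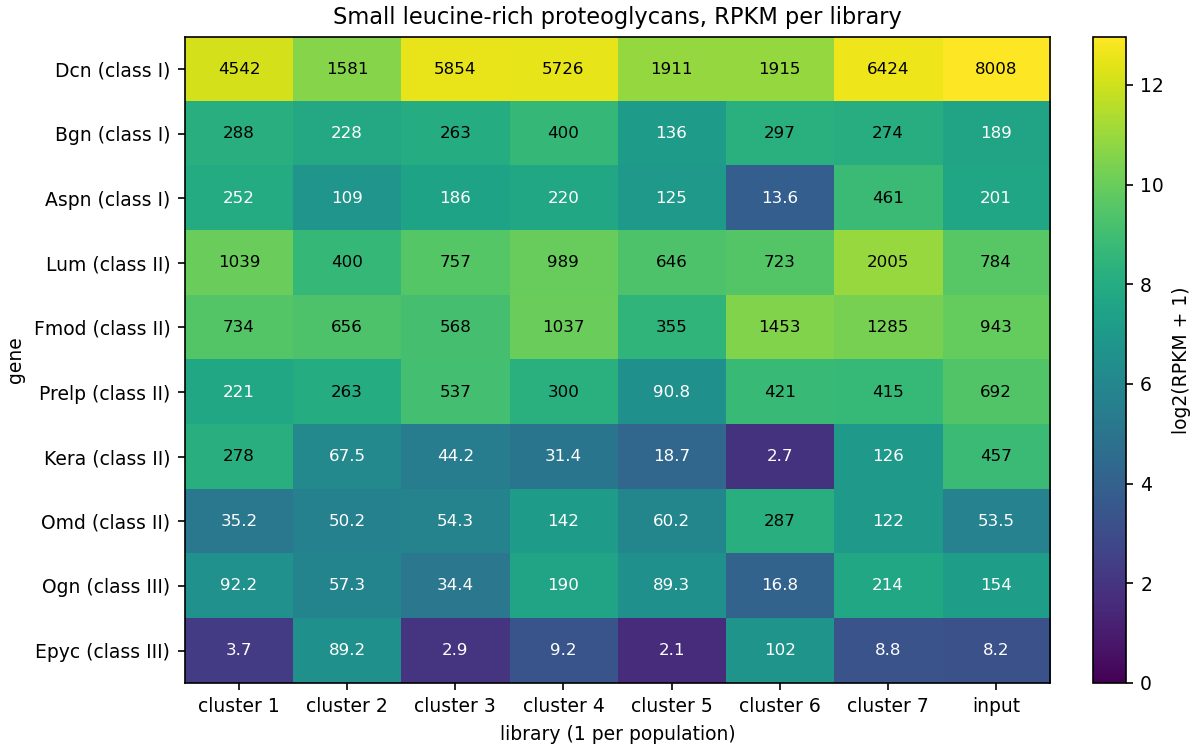
RPKM of the 10 genes (rows, by class) in the 8 libraries (columns), with colour for log2(RPKM + 1) and the RPKM printed in each cell. Dcn was the highest of the 10 in every library, Epyc stood out in clusters 2 and 6, and Aspn, Kera and Ogn were lowest in cluster 6.

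Among the class I genes, Dcn (decorin), which binds fibrils of type I collagen and transforming growth factor beta, was at 4542, 1581, 5854, 5726, 1911, 1915 and 6424 RPKM in clusters 1 to 7 and at 8008 in the input. Clusters 7, 3, 4 and 1 were thus high and clusters 2, 5 and 6 low, with no value between 1915 and 4542. Cluster 7 was 4.06-fold above cluster 2 (95% interval 4.03 to 4.09), and clusters 5 and 6 could not be ordered beyond counting error. With TMM factors the gap between high and low clusters narrowed, with cluster 5 at 2584 and cluster 1 at 4113. Dcn ranked first of the 10 genes in all 8 libraries, was between the 4th and 30th gene by RPKM, and had the largest count of any gene in the input, 336479.

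Bgn (biglycan), the close relative of decorin that can also signal through Toll-like receptors, had the narrowest range of the family by total count, though not with TPM. It was at 288, 228, 263, 400.2, 136, 297 and 274 RPKM in clusters 1 to 7 and at 189 in the input. Cluster 4 was 2.95-fold above cluster 5 (2.89 to 3.01), and the other 5 sorted libraries lay between 228 and 297. With TMM factors cluster 4 was 2.24-fold above cluster 5, and clusters 4 and 6 were closer, at 410 and 382. The exon length given for Bgn, 6099 bases, is 2.57 times its longest GENCODE M1 transcript of 2377 bases. Its level per length may therefore be understated against the other genes, but where its reads fell on the exons was not tested. With the transcript length, an alternative chosen after the data were seen, its share of the family's summed RPKM rose from 6.51 to 14.0% in cluster 2 and from 5.67 to 12.4% in cluster 6.

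Aspn (asporin), which competes with decorin for collagen, was at 252, 109, 186, 220.5, 125, 13.6 and 461 RPKM in clusters 1 to 7 and at 201 in the input. Cluster 6 stood alone at the bottom, 34.0-fold below cluster 7 (31.9 to 36.2), and the next lowest, cluster 2, was still at 109. The ratio of Dcn to Aspn within a library needs no scaling between libraries. It was 141 in cluster 6 and 13.9 to 31.5 in the other 6 sorted libraries.

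Among the class II genes, Lum (lumican), which spaces collagen fibrils and is best known from the cornea, was at 1039, 400.4, 757, 989, 646, 723 and 2005 RPKM in clusters 1 to 7 and at 784 in the input. It was highest in cluster 7, 5.01-fold above cluster 2 (4.94 to 5.08), and 1.93-fold above cluster 1, the next in order (cluster 4 with TMM factors).

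Fmod (fibromodulin), a partner of lumican in collagen fibril maturation of tendon, was at 734, 656.5, 568, 1037, 355, 1453 and 1285 RPKM in clusters 1 to 7 and at 943 in the input. Cluster 6 led, 4.10-fold above cluster 5 (4.03 to 4.17). Lumican and fibromodulin therefore changed places: Lum exceeded Fmod in clusters 1, 3, 5 and 7, by 1.33 to 1.82 times, and Fmod exceeded Lum in clusters 2, 4 and 6. The ratio of Lum to Fmod was lowest in cluster 6, at 0.497.

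Prelp, a proteoglycan with a basic end that binds heparan sulfate, was at 221, 263, 537, 300.2, 90.8, 421 and 415 RPKM in clusters 1 to 7 and at 692 in the input. It was the only member highest in cluster 3 by total count, at 5.92-fold above cluster 5 (5.73 to 6.11). With TMM factors clusters 3 and 6 were nearly level, at 546 and 542.

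Kera (keratocan), a keratan sulfate proteoglycan of cornea that is also found in tendon, had the widest range by total count, and Epyc with TPM. Kera was at 278, 67.5, 44.2, 31.4, 18.7, 2.74 and 126 RPKM in clusters 1 to 7 and at 457 in the input. Cluster 1 exceeded cluster 6 by 101.7-fold (87.3 to 119), and no 2 sorted libraries had overlapping counting intervals. With 169 counts in cluster 6, the 95% interval of its level there was 2.34 to 3.18 RPKM.

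Omd (osteomodulin), an acidic proteoglycan made by osteoblasts that binds mineral, was at 35.2, 50.2, 54.3, 142, 60.2, 287 and 122 RPKM in clusters 1 to 7 and at 53.5 in the input. Cluster 6 was 8.15-fold above cluster 1 (7.70 to 8.63), clusters 4 and 7 formed a middle level, and the other 4 sorted libraries were at 60.2 RPKM or less.

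Of the class III genes, Ogn (osteoglycin, or mimecan), first described in bone, was at 92.2, 57.3, 34.4, 189.8, 89.3, 16.8 and 214 RPKM in clusters 1 to 7 and at 154 in the input. Clusters 7 and 4 were highest, and cluster 7 exceeded cluster 6 by 12.7-fold (12.1 to 13.5). Clusters 1 and 5 could not be ordered beyond counting error.

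Epyc (epiphycan), a proteoglycan of growth plate cartilage, was at 3.74, 89.2, 2.90, 9.20, 2.10, 102 and 8.83 RPKM in clusters 1 to 7 and at 8.19 in the input. It was at 89.2 RPKM or more in clusters 2 and 6 and at 9.20 or less in the other libraries, and cluster 6 exceeded cluster 5 by 48.8-fold (38.5 to 62.8). Clusters 4 and 7 could not be ordered beyond counting error.

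Read by population, cluster 7 held the highest sorted value of 4 of the 10 genes (Dcn, Aspn, Lum and Ogn), against 25.3% of all genes tested, and cluster 6 that of 3 (Fmod, Omd and Epyc), against 7.1%. The lowest value fell in cluster 5 for 4 genes (Bgn, Fmod, Prelp and Epyc; 46.3% of all genes) and in cluster 6 for 3 (Aspn, Kera and Ogn; 25.5%). In cluster 7, 6 members were more than 2-fold above the median of the other 6 sorted libraries (Dcn, Aspn, Lum, Kera, Omd and Ogn; 6.76% of all genes). Blood cell markers were also high in cluster 7 by total count, where all 5 macrophage markers, Ptprc, 3 of 5 B cell and 3 of 6 neutrophil markers had their highest sorted value. The macrophage markers, led by Cd68 at 32.4 RPKM, summed to 75.0 RPKM there, to 15.1 to 29.8 in the other sorted libraries and to 89.3 in the input. Lum had an r of 0.84 with Csf1r and 0.73 with Ptprc over the sorted libraries, Dcn 0.47 and 0.30, and Aspn 0.18 and 0.17. Ogn had 0.36 and 0.36, Kera 0.02 and 0.17, and Fmod, highest in cluster 6, had 0.76 and 0.76. Csf1r had the highest r with Dcn of the 5 macrophage markers, and C1qa the lowest, at -0.21. The part of these cells in the cluster 7 values was not tested. Cluster 6 had 3 members more than 2-fold above the median of the others (Fmod, Omd and Epyc; 4.55%) and 4 as far below it (Dcn, Aspn, Kera and Ogn; 10.4%). Cluster 5 had 6 members below (Dcn, Bgn, Fmod, Prelp, Kera and Epyc; 13.1%) and none above.

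In cluster 4, Omd and Ogn were above (4.72% of all genes), and in cluster 2 Epyc was above (8.45%) while Dcn and Lum were below (4.54%). In cluster 1, Kera was above (5.53%) and Omd and Epyc were below (1.58%). In cluster 3, Ogn and Epyc were below (3.09%). Perisinusoidal stroma markers (Cxcl12, Lepr, Kitl, Adipoq, Foxc1 and Ebf3) had their largest sorted sum in cluster 4, where 2 of the 6 were highest. The sum was 209 RPKM there, led by Cxcl12 at 139, and 32.4 to 90.5 in the other sorted libraries. The part of these cells in the cluster 4 values was not tested.

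Scaling mattered for cluster 5 and the input. TMM factors, which centre the bulk of genes between libraries, raised all log2 levels by 0.44 in cluster 5 and 0.37 in cluster 6, and lowered them by 0.14 in cluster 1 and 0.68 in the input. With them, cluster 5 had 3 members below the median of the others (Prelp, Kera and Epyc; 4.34% of all genes) and cluster 7 had 4 above (Aspn, Lum, Kera and Ogn; 4.6%). Cluster 6 kept Fmod, Omd and Epyc above (7.21%) and Aspn, Kera and Ogn below (6.83%). Of the 60 pairs of neighbours in the 10 orders of sorted libraries, 3 had a counting interval that held 1 and 6 changed order with TMM factors. The highest library was kept under every setting for 9 of the 10 genes, and for Dcn it passed from cluster 7 to cluster 3 with DESeq2 size factors.

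The mix of the family within a library does not depend on scaling between libraries. Dcn made up 60.7, 45.1, 70.5, 63.3, 55.7, 36.6 and 56.7% of the family's summed RPKM in clusters 1 to 7 and 69.7% in the input. Clusters 2 and 6 were the lowest, and Fmod was at its largest shares there, 18.7 and 27.8%. Class II as a whole was 55.2% of the sum in cluster 6 and exceeded class I, at 42.5%, in that library alone. With transcript lengths this order was lost, at 48.4% for class II and 49.6% for class I, through the share of Bgn. Omd reached 5.48% of the sum in cluster 6 and was at 1.75% or less in the other libraries, and class III was smallest in cluster 3 (0.45%) and largest in cluster 2 (4.18%). The summed level itself was 7486, 3503, 8302, 9045, 3433, 5229 and 11335 RPKM in clusters 1 to 7 and 11489 in the input. With TMM factors the input fell to 7195 and cluster 5 rose to 4642, so that cluster 2 alone was lowest, at 3521.

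**Figure D2:**
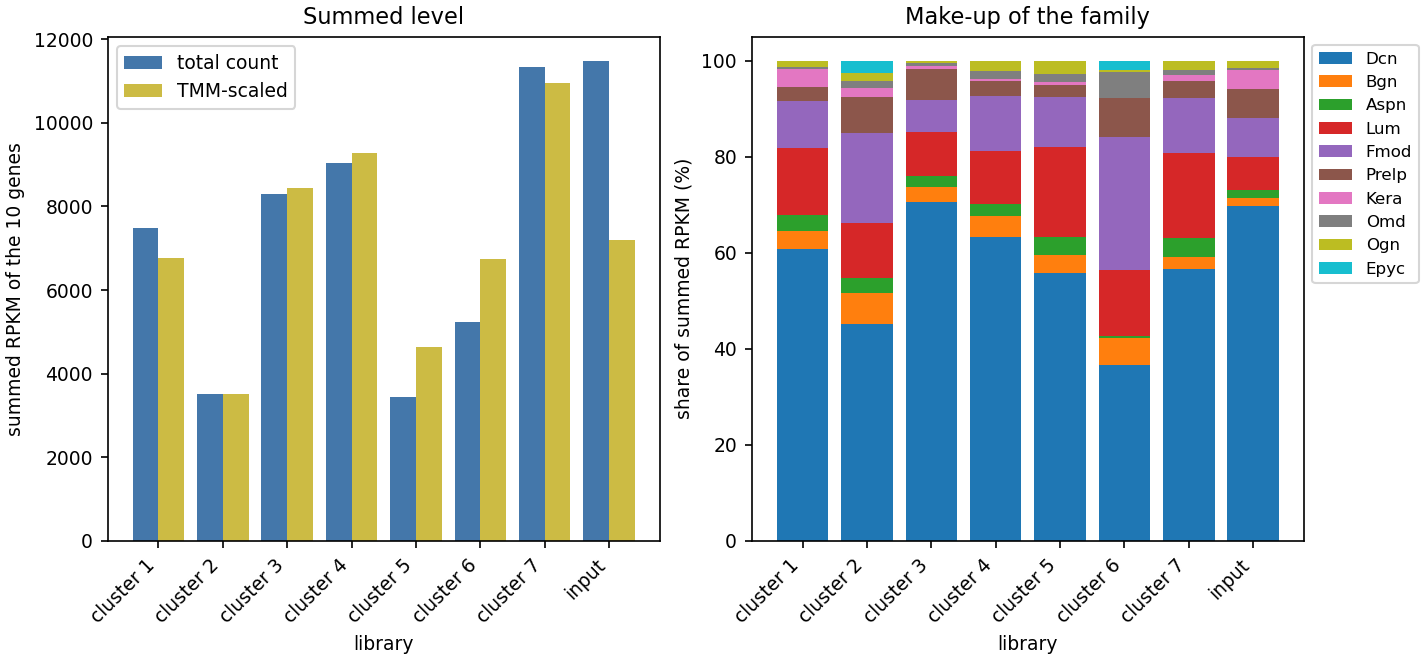
Left, summed RPKM of the 10 genes in each library, scaled by total count or by TMM factors; right, each gene's share of the sum in percent. The input was highest at 11489 by total count but 7195 with TMM factors, and the share of Dcn was smallest in cluster 6 (36.6%) and largest in cluster 3 (70.5%).

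Genes that lie next to each other often had unlike profiles. On chromosome 10, the ratio of Epyc to Kera within a library was 0.0135, 1.32, 0.0656, 0.293, 0.112, 37.4 and 0.0699 in clusters 1 to 7 and 0.0179 in the input. Kera exceeded Epyc in all libraries but clusters 2 and 6, and the pair, 30.4 kb apart, reversed between clusters 1 and 6. Dcn and Lum at the other end of the cluster moved more alike, with Dcn 2.65 to 7.73 times Lum in the sorted libraries.

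On chromosome 13, the ratio of Omd to Ogn was 0.381, 0.877, 1.58, 0.750, 0.675, 17.1 and 0.571 in clusters 1 to 7 and 0.347 in the input. Omd exceeded Ogn in clusters 3 and 6 only, and Aspn in cluster 6 only, where Omd was 21.1 times Aspn. In cluster 6 Omd had its highest sorted level while Aspn and Ogn, its neighbours on both sides, had their lowest.

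**Figure D3:**
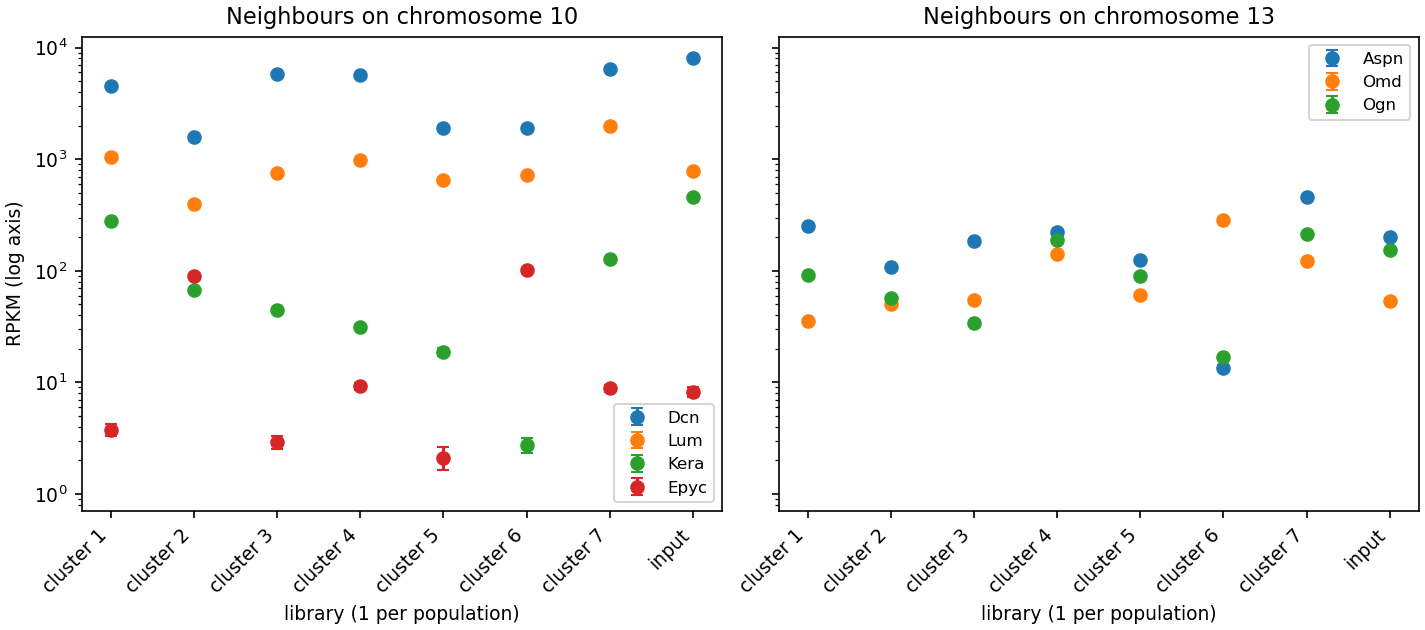
RPKM (log axis) of the neighbouring genes on chromosome 10 (left) and chromosome 13 (right) in the 8 libraries, 1 point per library, with exact Poisson 95% intervals of counting error. Epyc was above Kera in clusters 2 and 6, and Omd was at 287 RPKM in cluster 6, where Aspn and Ogn were at 13.6 and 16.8.

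Over the 7 sorted libraries, Pearson's r of log2(RPKM + 1) between members is given as a description, since the points share libraries and depth. Of 45 pairs, 7 had r above 0.7 and 14 below 0 (5 and 18 with TMM factors). The highest were Aspn with Kera (0.85) and with Ogn (0.83), Dcn with Lum (0.78), Bgn with Fmod (0.77) and Fmod with Omd (0.75). The lowest was Kera with Omd (-0.71). Without the cluster 5 library, Bgn with Prelp went from 0.71 to -0.08 and Bgn with Fmod to 0.44. Dcn with Epyc then became the lowest pair, going from -0.57 to -0.91, and Kera with Omd was at -0.80.

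Against the input, no member was more than 2-fold higher in all 7 sorted libraries, as were 0.472% of 19088 genes. Cluster 7 exceeded the input by more than 2-fold for Aspn, Lum and Omd (3.34% of all genes), and with TMM factors for Bgn, Fmod and Ogn as well (9.22%). Cluster 5 was below the input by more than 2-fold for 5 of the 10 genes by total count, under the 58.2% of all genes, and for 2 (Prelp and Kera) with TMM factors (24.6%). Dcn, Prelp and Kera were higher in the input than in any sorted library by total count. With TMM factors Kera remained so, at 286 in the input and 252 in cluster 1. Dcn at 5014 was then below clusters 3, 4 and 7, and Prelp at 433 below clusters 3 and 6. Omd was 5.35-fold above the input in cluster 6 (5.09 to 5.63) and Epyc 12.5-fold (11.3 to 13.8) by total count, and 11.0-fold and 25.7-fold above it with TMM factors.

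Markers of skeletal cell types moved with several members, and their part in these levels was not tested. All 6 chondrocyte markers (Acan, Col2a1, Sox9, Matn3, Comp, Cnmd) were highest in cluster 6, as was Epyc. Their summed RPKM was 600, 12611, 1118, 5703, 641, 15627 and 1619 in clusters 1 to 7 and 995 in the input. Col2a1, the collagen of cartilage and the most abundant of them in clusters 2, 4 and 6, was at 8611 in cluster 2, 3046 in cluster 4 and 10541 in cluster 6. Epyc followed this order at the top, but cluster 4 held 45.2% of the marker sum of cluster 2 with 10.3% of its Epyc. The r of Epyc was 0.97 with Acan and 0.78 with Comp.

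Osteoblast markers (Bglap, Bglap2, Ibsp, Alpl, Sp7, Runx2, Dmp1, Phex) summed to 686, 6494, 24733, 1162, 8740, 22833 and 1510 RPKM in clusters 1 to 7 and to 237 in the input. Cluster 3 had the largest sum by total count, and cluster 6 with TMM factors (29431, against 25140 in cluster 3). Cluster 3, with Bglap (osteocalcin) at 14020, had Omd at 54.3 RPKM, while cluster 6, with a similar sum and Bglap at 11032, had Omd at 287. Omd had an r of 0.86 with Ibsp (bone sialoprotein), 0.80 with Alpl and 0.06 with Bglap. Ibsp was at 3192 RPKM in cluster 6 and at 446 in cluster 3.

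All 4 tendon markers (Scx, Tnmd, Mkx and Kera itself) were highest in cluster 1 among the sorted libraries by total count, and 3 of them with TMM factors, when Tnmd was at 212 in cluster 4 and 207 in cluster 1. The 3 other than Kera summed to 280, 120, 78.3, 245, 118, 15.6 and 224 RPKM in clusters 1 to 7 and to 369 in the input. Kera was high where the sum was high, except in cluster 4, where the sum was 245 and Kera 31.4. None of these markers was at 0 counts in any library, nor was any of the 6 adventitial fibroblast markers (Pi16, Dpt, Cd34, Ly6a, Clec3b and Dpp4). The latter, led by Ly6a, summed to 1314, 145, 1406, 887, 168, 14.8 and 507 RPKM in clusters 1 to 7 and to 837 in the input. Their r with Dcn was 0.66 (Dpp4) to 0.87 (Cd34), and with Aspn 0.36 (Dpp4) to 0.89 (Clec3b). With Kera it was 0.43 (Dpp4) to 0.84 (Clec3b). The r of the tendon markers with Aspn was 0.63 (Mkx) to 0.93 (Tnmd), and with Kera 0.83 (Mkx) to 0.93 (Scx). Of 6 smooth muscle and pericyte markers (Acta2, Myh11, Tagln, Rgs5, Cspg4 and Mcam), 3 were highest in cluster 1. Their r with Aspn was -0.62 (Cspg4) to 0.84 (Acta2), and with Kera -0.33 (Cspg4) to 0.87 (Tagln). The part of these cells was not tested.

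**Figure D4:**
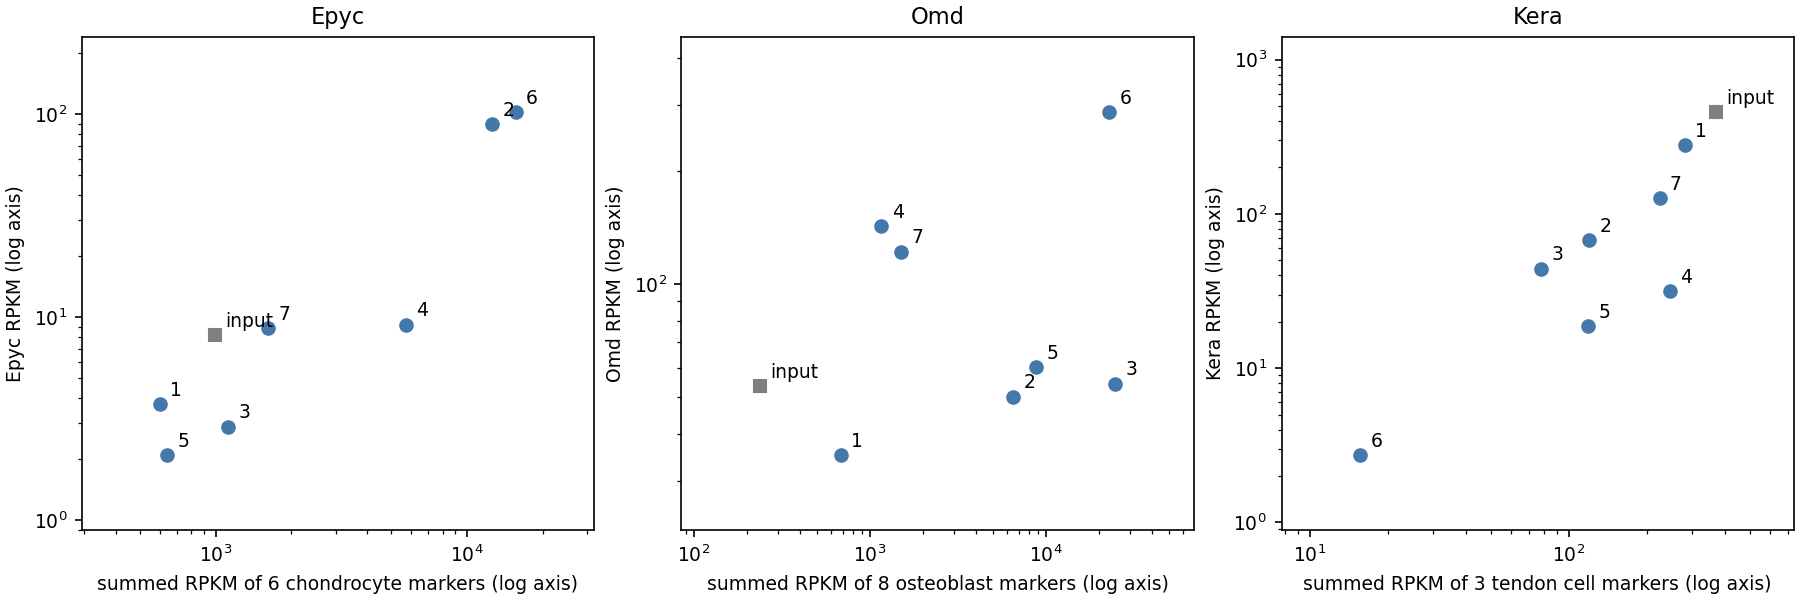
RPKM of Epyc, Omd and Kera against the summed RPKM of chondrocyte, osteoblast and tendon cell markers (Kera left out of the last), both on log axes, 1 point per library (numbers are clusters; the square is the input). Epyc was highest in clusters 2 and 6 with the chondrocyte sum, Omd was at 54.3 in cluster 3, where the osteoblast sum was 24733 by total count, and Kera was lowest in cluster 6 with the tendon sum of 15.6.

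The genes with the profile most like each member, by r over the 7 sorted libraries among 10956 genes, were named by rule, 3 for each member but Kera. For Epyc they were Rapgef2, Slc26a2 and Cnfn. Slc26a2, a sulfate transporter, was at 17.4 RPKM in cluster 2 and 17.3 in cluster 6 and at 5.88 or less in the other sorted libraries (r = 0.99). For Ogn they were Ptgfr, Iigp1 and Creg1, and for Fmod Jak2, Sf1 and Thbs1. Thbs1, a matrix glycoprotein, was lowest at 64.5 RPKM in cluster 5 and highest at 493 in cluster 6. For Aspn they were Ankrd29, Prss23 and Ddx52, for Dcn Hspa8, Tagln2 and Shisa5, and for Bgn Farp1, Grlf1 and Stk40. For Lum they were Mospd1, Pcid2 and Rab8b, for Prelp Spg20, Scamp3 and Mrps18b, and for Omd Abhd15, Pigo and Myo1d. For Kera, Eif2ak2 and Stk11 are given. The r moved with TMM factors. It went from 0.98 to 0.82 for Mospd1 with Lum and from 0.96 to 0.79 for Ddx52 with Aspn. For Myo1d with Omd it rose from 0.92 to 0.95. Some of these genes were low: Cnfn was at 0 RPKM in clusters 1, 3 and 5, and Abhd15 at 0.97 to 2.03 in the sorted libraries.

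Genes that work with the family were read from 7 lists of 102 genes, and their counts are read against the 70.6% of all genes past 2-fold and the 15.7% past 4-fold. Of 8 other leucine-rich family members, 6 were above 2 RPKM in a sorted library and all 6 passed 2-fold between the highest and lowest, 5 of them 4-fold. Chad (chondroadherin), which binds cartilage collagen and integrins, was at 120, 1097, 1014, 2762, 408, 2687 and 913 RPKM in clusters 1 to 7 and at 1387 in the input. It was above Epyc in every library. By total count it was highest in cluster 4, where Epyc was low, and with TMM factors in cluster 6 (3464, against 2831 in cluster 4). Chadl, a relative of Chad, was at 29.0, 23.0 and 47.6 RPKM in clusters 2, 4 and 6 and below 2 in the other sorted libraries. Podn ranged from 0.11 RPKM in cluster 6 to 17.0 in cluster 4, and Ecm2, next to Aspn, from 12.9 in cluster 5 to 55.9 in cluster 4.

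Among the enzymes that build the sugar chains, all 22 of the chondroitin and dermatan sulfate list were above 2 RPKM and 21 passed 2-fold (70.6% of all genes), 8 of them 4-fold (15.7%). Chpf, Chst12, B3gat3 and Csgalnact2 were the most abundant, and Chpf, of the chondroitin polymerase, ranged from 18.7 in cluster 5 to 79.0 in cluster 4. Of the 10 keratan sulfate and tyrosine sulfation enzymes, 9 were above 2 RPKM and 7 passed 2-fold, 2 of them 4-fold. Tpst1, which sulfates tyrosines, was lowest, at 12.1 RPKM, in cluster 6, where the tyrosine-sulfated Fmod and Omd were highest, while Tpst2 was at 25.7 there. B4galt1 and Fut8 completed the named enzymes, at 10.8 to 23.9 and 7.58 to 14.2 RPKM.

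All 21 fibrillar collagens and fibril partners passed 2-fold (70.6% of all genes), 15 of them 4-fold (15.7%). Col1a1, of the collagen that decorin binds, was at 15952 RPKM in cluster 6, its highest level, where Dcn was among the lowest, and Col1a2 was at 6087 there. Col3a1 was at 302 RPKM in cluster 6 and at 3300 in cluster 1. Of the 12 proteases, 11 were above 2 RPKM and passed 2-fold, 6 of them 4-fold. Mmp2 and Mmp13, which can cleave members of the family, were at 817 and 800 RPKM in cluster 7, their highest, and Pcolce and Htra1 at 253 and 289. Of the 11 receptors bound by decorin or biglycan, 8 were above 2 RPKM and 6 passed 2-fold, 4 of them 4-fold. Cd14 and Tlr2, receptors of myeloid cells, were highest in cluster 7 among the sorted libraries, at 585 and 59.9 RPKM. They were higher still in the input by total count, at 617 and 89.2, but not with TMM factors, at 386 and 55.9. Itgb1 and Lrp1 were at 167 and 47.0 in cluster 7. Of 18 other proteoglycans, 15 were above 2 RPKM and passed 2-fold, 11 of them 4-fold, and the most abundant were Sdc4, Srgn, Acan and Sdc2. Acan, the large cartilage proteoglycan, was at 349 RPKM in cluster 6, and Srgn, that of blood cell granules, at 251 in cluster 7.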

How the data were processed

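RNA-seq of 7 sorted bone marrow stromal populations and of input marrow was analysed, with 1 library each. Per the labels and methods, the authors aligned reads in Partek Flow 2.2 with TopHat2 and deposited raw counts per gene with an exon length (the other column used); counting tool, use of strand and treatment of shared reads are not given in the sources used here. The study's methods name mm9, whereas the deposited gene positions are those of GRCm38. RPKM was computed from the deposited counts, that length and the total count on genes, which is the unit of the study's methods, as are the limits of 2 RPKM and 2-fold, the latter on RPKM + 1. TMM factors came from edgeR 4.0.16 and size factors from DESeq2 1.42.0 (R 4.3.3), without any test, since 1 library per population leaves no replicate spread. Exact Poisson (levels) and exact binomial (ratios) 95% intervals were made with scipy 1.17.1. PCR copies were not separated. Symbols were matched for 32464 of 49315 genes. Named were all 10 members, the 4 genes of highest mean RPKM over the sorted libraries in each related list, and the 3 genes of highest r with each member among those with at least 50 counts in 1 library; other marker genes named were chosen after their values were seen. Members and lists were chosen with earlier results of these data known. For Kera, 1 gene that this rule names is not reported here.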

Additional observations from a re-analysis of the deposited data

How the results depend on the processing

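Scaling by TMM factors, DESeq2 size factors, total count less 3 loci (Rn18s-rs5, Lars2 and mmu-mir-689-2), TPM, equal depth, a pseudocount of 0.1, no RPKM limit and omission of the cluster 5 library were tried, and 2 alternatives (4-fold, transcript length) were added after seeing the data. Of the counts of members and the median r, 126 values stayed within 1.5 times (0.05 for r) and 12 did not. The ratio of highest to lowest library was taken for the pair set by total count. Only where cluster 5 was left out and had been the lowest did the next lowest take its place. No ratio reversed, but 36 of its values moved from the total-count value by more than the counting interval allows and 44 did not. On the log2 scale this ratio ran from 0.81 to 3.73 for Bgn, 1.35 to 4.35 for Fmod and 1.28 to 4.74 for Prelp, lowest without the cluster 5 library and highest with TPM. It ran from 4.70 to 7.05 for Epyc, 1.88 to 3.17 for Dcn and 2.18 to 3.47 for Lum. These were lowest without the 3 loci and highest with TPM. Members below the median of the others in cluster 5 numbered 6 by total count (13.1% of all genes), 3 with TMM factors (4.34%), 3 with DESeq2 size factors (3.42%), 3 without the 3 loci (3.41%), which held 30.6% of its counts, and 10 with TPM (81.7%). With TPM, 3 members were above in cluster 1 (13.7% of all genes), 7 below in cluster 2 (34%), 1 above in cluster 3 (8.01%) and 1 below in cluster 3 (2.88%), where RPKM gave 1, 2, 0 and 2. Without the cluster 5 library, 4 were below in cluster 2 (6.68%) and 1 in cluster 4 (1.49%), where all 7 libraries gave 2 and 0. The median r over member pairs was 0.325, 0.190 without the cluster 5 library and 0.254 without cluster 7. The cause was not tested. The lowest library passed to cluster 5 for Dcn, Lum and Omd with TPM, and to cluster 3 for Epyc with DESeq2 size factors or without the 3 loci. No paired analysis was possible because no population was sequenced in replicate. At this depth 3 of 60 neighbouring orders could not be told apart by counting error, and differences between animals or sorts could not be measured.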
